A study of Mus musculus with 6 samples.

Results

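The receptors and integrin chains through which haematopoietic cells hold to the bone marrow or leave it were followed in RNA sequencing of mouse marrow with and without Gab2. They are the chemokine receptor Cxcr4, the sphingosine-1-phosphate receptor S1pr1, the integrin subunits Itga4, Itga5, Itgb1, Itgal and Itgb2, the hyaluronan receptor Cd44 and the selectin ligand Selplg. The 9 genes were chosen by name, as rows of the expression table with these symbols, out of 23359 symbols in all, and each stood on a single row. Of the 9, 8 had a mean of at least 1 FPKM (fragments scaled by transcript length and by the number mapped in the library) over the 6 libraries and were tested, as were 9916 genes in the whole table. Itga5 lay below that mean.

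The samples were bone marrow of genotype Gab2 +/+ (3 libraries, called WT, lettered A to C) and of genotype Gab2 -/- (3 libraries, called NULL, with the same letters), all of polyadenylated RNA. The labels give no strain, age, treatment, culture or sorting for either group, and the series title places them in work on transformation by BCR-ABL1. GAB2 is a docking adaptor that couples cytokine receptors and oncogenic kinases to SHP2 and PI3-kinase. Whether each library came from its own animal is not stated, so the spread behind the p-values is that between these libraries and may be technical.

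In marrow, stromal cells secrete the chemokine CXCL12, and CXCR4 on blood cell precursors answers it and keeps them near the stroma. Integrins are pairs of an alpha and a beta chain: alpha4beta1 (VLA-4) binds VCAM-1, alpha5beta1 (VLA-5) binds fibronectin, and alphaLbeta2 (LFA-1) binds ICAM-1. CD44 binds hyaluronan, PSGL-1 (the product of Selplg) binds selectins, and S1PR1 senses the sphingosine-1-phosphate of blood and draws lymphocytes out of the tissue.

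Gab2 itself stood at 3.33, 3.10 and 2.43 FPKM in WT and at 0.123, 0.145 and 0.203 FPKM in NULL, which fits the labels (exact two-sided permutation p = 0.1, the smallest possible for 3 libraries against 3). Depth, read from the steps between low values, was roughly 17800000 to 67600000 fragments per library. Transcripts of B-lineage cells were abundant in both groups: the summed level of 13 B-lineage markers was 2081 to 2301 FPKM in WT and 3227 to 3386 FPKM in NULL, and of the 12 tested 9 were higher and 1 lower, where 65.3% of all tested genes were called, 23.3% higher and 42% lower. The 14 neutrophil markers summed to at most 0.401 FPKM in any library, with Elane, S100a8 and S100a9 at 0 throughout, and the 11 measured T and NK cell markers to at most 0.672 FPKM. Granulocytes are abundant in whole marrow, so the marker profile goes against unfractionated marrow. The 10 erythroid markers summed to 276 to 360 FPKM in WT and 159 to 184 FPKM in NULL, most of it Tfrc, the transferrin receptor of dividing cells, which was called lower. The globin gene Hbb-b1, also called lower, read 8.31, 7.21 and 58.7 FPKM in WT, highest in WT C, and at most 0.000359 FPKM in NULL. Only its WT libraries brought it to a mean of 1 FPKM. The 8 mast cell and basophil markers summed to at most 0.0165 FPKM in WT and to 0.504 to 2.85 FPKM in NULL. The part of these cells in the members' results was not tested. The 10 markers of stroma and bone summed to at most 0.466 FPKM. In bulk RNA, fewer cells of a type and less RNA per cell cannot be told apart.

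Promoters of 4 members are shown here, from RefSeq, because they changed between the groups, Cxcr4 and Itga4 upwards and Itgb1 and Cd44 downwards, and because the products of Itga4 and Itgb1 form a single receptor. Itga5 also had an entry, so 5 of the 9 members matched. The sequences are the 250 bases before the start of the gene in GRCm38.p6, at chr1:128592300-128592549 on the minus strand for Cxcr4, chr2:79255176-79255425 on the plus strand for Itga4, chr8:128685404-128685653 on the plus strand for Itgb1 and chr2:102901666-102901915 on the minus strand for Cd44. Capitals mark matches on either strand to 6 short motifs: CACCC (bound by KLF factors), GTAAACA (FOXO), GAGGAA (PU.1 and other ETS factors), GGGCGG (SP1), GCATGCGC (NRF1) and TATAAA (the general factor TBP).
Cxcr4: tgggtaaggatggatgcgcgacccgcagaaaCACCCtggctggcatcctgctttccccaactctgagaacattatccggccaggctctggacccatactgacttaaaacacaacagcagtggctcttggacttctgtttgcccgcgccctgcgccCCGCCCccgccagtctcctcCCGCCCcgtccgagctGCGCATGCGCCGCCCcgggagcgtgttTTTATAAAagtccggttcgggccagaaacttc
Itga4: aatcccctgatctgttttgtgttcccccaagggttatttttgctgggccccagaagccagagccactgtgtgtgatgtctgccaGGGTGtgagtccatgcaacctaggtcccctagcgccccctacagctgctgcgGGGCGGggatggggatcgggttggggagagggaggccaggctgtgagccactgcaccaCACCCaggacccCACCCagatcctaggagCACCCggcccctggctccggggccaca
Itgb1: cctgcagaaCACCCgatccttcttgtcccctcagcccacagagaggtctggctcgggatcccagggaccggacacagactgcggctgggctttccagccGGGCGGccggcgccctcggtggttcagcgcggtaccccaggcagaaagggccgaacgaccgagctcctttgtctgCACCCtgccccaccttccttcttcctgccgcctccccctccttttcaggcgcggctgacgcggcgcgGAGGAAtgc
Cd44: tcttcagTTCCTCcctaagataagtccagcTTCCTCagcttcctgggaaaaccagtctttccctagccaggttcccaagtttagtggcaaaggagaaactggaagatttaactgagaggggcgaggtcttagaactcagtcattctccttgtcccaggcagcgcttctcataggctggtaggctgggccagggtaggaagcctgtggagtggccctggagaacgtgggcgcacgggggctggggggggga

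The Cxcr4 window held TATAAA 30 to 25 bases before the start, 3 matches to GGGCGG and the NRF1 motif on both strands at overlapping positions, 1 of these overlapping a GGGCGG match. Among 32851 promoter windows of this length, 12.4% held TATAAA, 32.7% GGGCGG and 2.26% GCATGCGC. Itga4 had 4 matches to CACCC and Itgb1 had 2, a motif found in 52.0% of windows. Cd44 had 2 matches to GAGGAA and Itgb1 had 1, against 23.3% of windows with any. GTAAACA was in none of the 4 windows and in 3.17% of all. These matches describe the letters only.

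Across the tested members, 4 were higher and 3 lower in NULL by limma (adjusted p below 0.05), and Selplg was not called. Among all tested genes 65.3% were called, 23.3% higher and 42% lower, so nothing is read from the count of 7 alone. The directions split the integrin pairs. The largest rise was in S1pr1 and the largest fall in Itgal, and both passed a log2 change of 1, as did 3.94% of tested genes upwards and 5.99% downwards. WT and NULL libraries did not overlap for 7 of the 8 tested members, 4 higher and 3 lower, nor for 71% of all tested genes, 26% higher and 45.1% lower. The untested Itga5 did not overlap either. The median change of the 8 was 0.33 on the log2 scale of FPKM + 1, beside -0.13 for all tested genes.

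**Figure D1:**
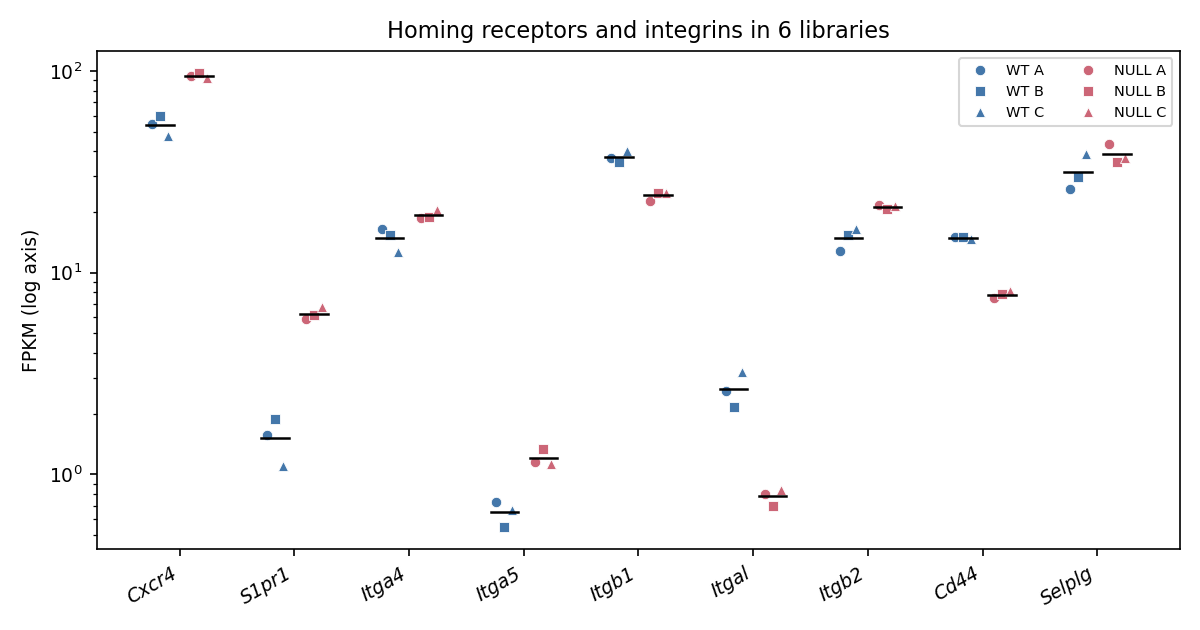
FPKM of the 9 members (log axis) in 3 WT (blue) and 3 NULL (red) libraries; symbols give the library letter and black bars the group mean. S1pr1, Cxcr4, Itga4, Itga5 and Itgb2 sit higher in NULL, Itgb1, Itgal and Cd44 lower, and the Selplg libraries overlap.

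The egress receptor S1pr1 rose about 4-fold from a low level. Its gene, ENSMUSG00000045092.8, is protein coding and lies on chromosome 3 from 115710433 to 115715072 on the minus strand of GRCm38. It read 1.57, 1.88 and 1.10 FPKM in the WT libraries and 5.901, 6.17 and 6.72 FPKM in the NULL libraries, given here and throughout in the order of their letters. Every NULL library was above every WT library, and the lowest, WT C, rested on about 70 fragments. The mean went from 1.52 ± 0.395 to 6.27 ± 0.420 FPKM (SD, n = 3 each), a 4.12-fold difference. On the log2 scale of FPKM + 1 the change was 1.54 (SE 0.121, limma adjusted p = 4.30e-05). In WT 7.13% of tested genes had a lower mean than S1pr1, and in NULL 36.7%. The size of the change depends on the pseudocount, being 2.002 with 0.1 and 0.79 with 5 added to the FPKM, and the call held with both.

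Cxcr4, the retention receptor, was the most abundant member in both groups and rose less. The gene, ENSMUSG00000045382.6, lies on chromosome 1 from 128588199 to 128592293 on the minus strand. Its values were 54.7, 59.9 and 47.8 FPKM in WT and 94.4, 97.3 and 91.8 FPKM in NULL. The groups were far apart, since the highest WT library was below the lowest NULL library by more than the whole spread of either group. Means were 54.1 ± 6.04 and 94.5 ± 2.74 FPKM (SD, n = 3 each), a 1.74-fold rise with a log2 change of 0.797 (SE 0.0898, limma adjusted p = 0.000174). Cxcr4 was above 88.8% of tested genes in WT and above 96.0% in NULL.

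Both receptors therefore rose together, and in the deposited values the balance between them shifted. Within each library the Cxcr4 level was 34.7, 31.8 and 43.4 times that of S1pr1 in WT, and 15.99, 15.8 and 13.6 times in NULL. The mean log2 ratio fell by 1.27 (exact two-sided permutation p = 0.1, the smallest possible, and 0.1 after Benjamini-Hochberg adjustment over 8 ratios). With 1 added to each FPKM the difference was -0.74. Scaling a library by a single factor leaves such a ratio as it is, but quantile normalization does not. After it the log2 changes of FPKM + 1 were 1.24 for Cxcr4 and 1.49 for S1pr1. These lie nearer each other than the 0.797 and 1.54 as deposited, so the size of the shift depends on the scaling.

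The subunits of VLA-4 moved in opposite directions. Itgb1 encodes beta1, the shared chain of many matrix receptors, and is found at 128685654 to 128733200 of chromosome 8, plus strand (ENSMUSG00000025809.15). It fell from 36.8, 35.4 and 40.2 FPKM in WT to 22.6, 24.97 and 24.9 FPKM in NULL, with no overlap. The means were 37.5 ± 2.47 and 24.1 ± 1.36 FPKM (SD, n = 3 each), and the log2 change was -0.61 (SE 0.0744, limma adjusted p = 0.000246). With each library brought to a common total the change was -0.34 with a larger SE of 0.267, and the call was lost (limma adjusted p = 0.349). Under that rescaling limma drew the SE from genes of like level, so it does not measure the spread of Itgb1 itself.

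Itga4, the alpha4 chain that pairs with beta1 in VLA-4, is found at 79255426 to 79333123 of chromosome 2, plus strand (ENSMUSG00000027009.18). Its level was 16.5, 15.5 and 12.6 FPKM in WT and 18.7, 18.9 and 20.5 FPKM in NULL. The groups did not overlap, and WT C was the lowest of the 6. Means of 14.9 ± 2.03 and 19.3 ± 0.997 FPKM (SD, n = 3 each) gave a log2 change of 0.37 (SE 0.101, limma adjusted p = 0.0138). Without NULL C the change was 0.33 and no longer passed (adjusted p = 0.0525).

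Itga5, the alpha5 chain of the fibronectin receptor VLA-5, was the weakest member in WT. The gene, ENSMUSG00000000555.8, is on chromosome 15 from 103344286 to 103366763 on the minus strand. It read 0.731, 0.5498 and 0.666 FPKM in WT and 1.15, 1.34 and 1.12 FPKM in NULL, without overlap, and WT B rested on about 40 fragments. Its means were 0.649 ± 0.0917 and 1.21 ± 0.119 FPKM (SD, n = 3 each). In a fit without a filter on low values, where 43.6% of 16712 genes were called, 18.2% higher and 25.4% lower, the log2 change was 0.42 (SE 0.0641, limma adjusted p = 0.00329).

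The ratio of alpha to beta1 transcripts rose for both alpha chains. Itga4 to Itgb1 was 0.449, 0.437 and 0.314 in WT and 0.828, 0.755 and 0.823 in NULL, a log2 difference of 1.02. The Itga5 to Itgb1 ratio went from a mean of 0.0173 ± 0.00224 to 0.0499 ± 0.00441 (SD, n = 3 each), a difference of 1.53. Itga5 against Itga4 differed least, by 0.51, and its nearest libraries, WT C at 0.0529 and NULL C at 0.0548, almost met. With 1 added to each FPKM the Itga5 to Itga4 difference was 0.053 and that of Itga5 to Itgb1 1.03. For each of the 3 ratios the exact permutation p was 0.1, and 0.1 after adjustment over 8 ratios.

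LFA-1 was split as well, with the alpha chain down and the beta chain up. Itgal, which encodes alphaL, is found at 127296260 to 127335138 of chromosome 7, plus strand (ENSMUSG00000030830.18). The targeted gene Gab2 is on the same chromosome, at 97081586 to 97308946. Whether the shared chromosome has a part in the Itgal result was not tested, and no strain is given. It dropped from 2.595, 2.16 and 3.22 FPKM in WT to 0.803, 0.695 and 0.835 FPKM in NULL, where NULL B corresponds to about 80 fragments. All NULL libraries lay under all WT libraries. Means were 2.66 ± 0.533 and 0.777 ± 0.0732 FPKM (SD, n = 3 each), a 3.42-fold fall with a log2 change of -1.03 (SE 0.114, limma adjusted p = 0.000158). With a pseudocount of 0.1 the change was -1.64 and with 5 it was -0.40, called in both cases. Itgal reached the filter only through its WT libraries, and was called without the filter as well (limma adjusted p = 0.00108).

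Itgb2 encodes beta2, the chain common to the leukocyte integrins, and is found at 77530252 to 77565708 of chromosome 10, plus strand (ENSMUSG00000000290.13). Its values were 12.8, 15.3 and 16.5 FPKM in WT and 21.6, 20.7 and 21.5 FPKM in NULL, again without overlap. The means of 14.9 ± 1.91 and 21.3 ± 0.4798 FPKM (SD, n = 3 each) differed by 0.496 on the log2 scale (SE 0.0934, limma adjusted p = 0.00223).

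Per unit of beta2 transcript, alphaL fell nearly 5-fold. The Itgal to Itgb2 ratio was 0.203, 0.141 and 0.195 in WT and 0.0372, 0.0335 and 0.0388 in NULL, a log2 difference of -2.28 or 4.87-fold. Set against Itga4, Itgal fell by 2.15 on the log2 scale. With 1 added to each FPKM these differences were -1.53 and -1.40. The beta chains also drew level: Itgb1 was 2.88, 2.304 and 2.43 times as abundant as Itgb2 in WT and 1.05, 1.204 and 1.16 times in NULL. Each of these ratios had separate groups and an exact permutation p of 0.1 (0.1 after adjustment over 8).

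**Figure D2:**
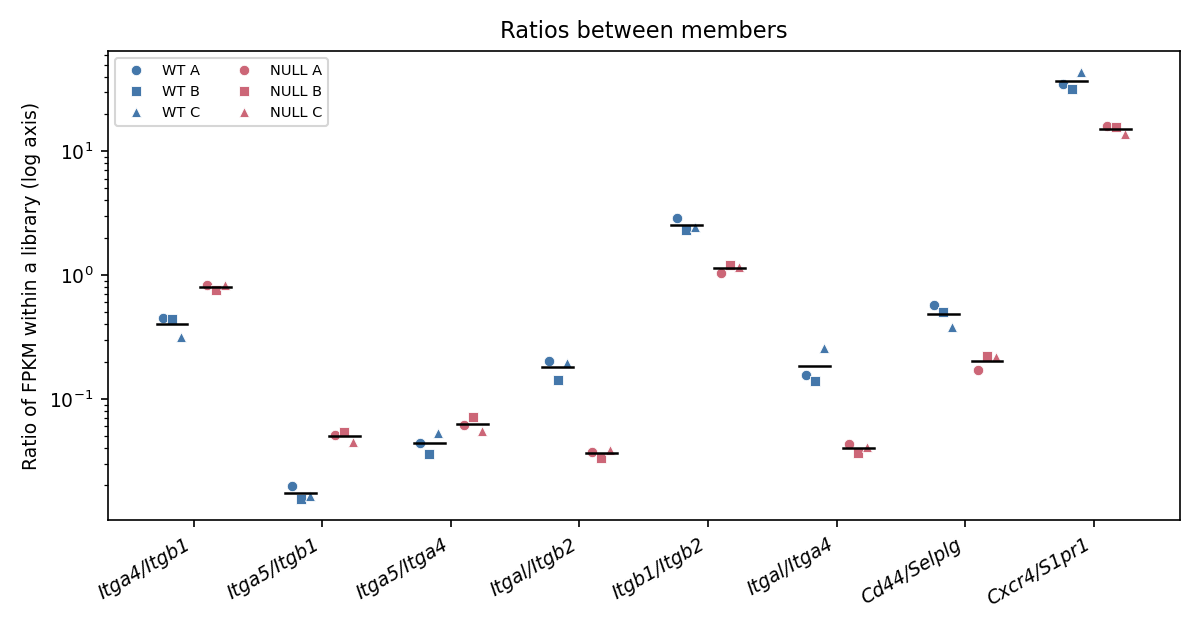
Ratio of the FPKM of 2 members within each library (log axis) for 8 pairs; blue WT, red NULL, symbols by library letter, black bars group means. All 8 ratios separate the groups, most widely Itgal/Itgb2, and the Itga5/Itga4 groups nearly touch. Of single tested genes 71% separate the groups and other pairs were not examined, so nothing is read from the count of 8.

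Another alpha partner of beta2 was higher in NULL, where alphaL was lower. Itgam, the alphaM chain of the complement receptor Mac-1, read 0.0738, 0.0493 and 0.0291 FPKM in WT and 4.58, 4.53 and 4.57 FPKM in NULL, a log2 change of 2.404 (SE 0.0701, limma adjusted p = 3.69e-06). Itgam was below Itgal in all 3 WT libraries and above it in all 3 NULL libraries. Itgam is known as a myeloid marker, and the 12 monocyte and macrophage markers summed to 2.07 to 2.97 FPKM in WT and 4.65 to 5.98 FPKM in NULL. Lyz2, the lysozyme gene, was the sole marker of that list to reach the filter, at 0.413 ± 0.154 and 2.85 ± 0.659 FPKM (SD, n = 3 each). Both Itgam and Lyz2 reached it only through their NULL libraries. The rest of the list did not move together. By group means in WT and NULL, F13a1 rose from 0.188 to 0.848 FPKM and Cd68 stayed at 0.897 and 0.888 FPKM. Ccr2 fell from 0.344 to 0.071 FPKM and Mrc1 from 0.434 to 0.163 FPKM. Cd14, C1qa, C1qb and C1qc were at 0 in every library, and the 14 neutrophil markers summed to 0.0455 to 0.226 FPKM in WT and 0.108 to 0.401 FPKM in NULL. The part of such cells in the Itgam and Itgb2 results was not tested.

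Cd44 fell, with the smallest standard error of the tested members. This receptor for hyaluronan lies on chromosome 2 from 102811141 to 102901665 on the minus strand (ENSMUSG00000005087.17), and a single FPKM per gene does not separate its spliced forms. It read 15.01, 15.03 and 14.6 FPKM in WT and 7.46, 7.84 and 8.08 FPKM in NULL. The 2 groups were each narrow and far apart. Means of 14.9 ± 0.2305 and 7.79 ± 0.312 FPKM (SD, n = 3 each) gave a log2 change of -0.85 (SE 0.0598, limma adjusted p = 2.99e-05), a level in NULL of 52.4% of WT. With a common total per library the SE was larger and the call narrow (-0.597, SE 0.245, limma adjusted p = 0.0489). That SE was drawn from genes of like level and does not measure the spread of Cd44 itself.

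Selplg, the gene for the selectin ligand PSGL-1 on chromosome 5 from 113818536 to 113832644 (minus strand, ENSMUSG00000048163.13), was not called. The values overlapped, at 26.02, 29.7 and 38.8 FPKM in WT and 43.4, 35.5 and 36.96 FPKM in NULL. WT C stood above 2 of the NULL libraries. The log2 change was 0.299, with a 95% interval from -0.041 to 0.64 (limma adjusted p = 0.106). Without WT C it was 0.45 and passed (adjusted p = 0.00788), as it did after median-of-ratios rescaling (0.45, adjusted p = 0.0185) and quantile normalization (0.63, adjusted p = 0.00315). The Cd44 to Selplg ratio fell from 0.577, 0.505 and 0.377 in WT to 0.172, 0.221 and 0.219 in NULL, by 1.24 on the log2 scale (exact permutation p = 0.1, the same after adjustment over 8 ratios).

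Because FPKM are scaled by length, the levels of members can be ranked. In WT the order of the means was Cxcr4, Itgb1, Selplg, then Cd44, Itgb2 and Itga4 at 14.9 FPKM each, then Itgal, S1pr1 and Itga5. The ranges of Cd44, Itgb2 and Itga4 overlapped, as did those of Itgb1 and Selplg, although Itgb1 was the higher of the pair in every WT library. In NULL it was Cxcr4, Selplg, Itgb1, Itgb2, Itga4, Cd44, S1pr1, Itga5 and Itgal, and no neighbours overlapped. Itgal thus moved from rank 7 to rank 9.

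How libraries are scaled matters in these data, because the median change of all tested genes moves from -0.13 as deposited to 0.0098 after median-of-ratios rescaling, -0.030 after quantile normalization and 0.11 with a common total. The lower share of all calls was 64.3%, 50.8%, 53.7% and 33.1% in the same order. No tested member changed sign under these rescalings. S1pr1 ranged from 1.49 to 1.73, Cxcr4 from 0.797 to 1.24, Itgb2 from 0.496 to 0.76 and Itga4 from 0.37 to 0.63 over the 4 scalings. Itgal ranged from -1.21 to -0.86, Cd44 from -0.85 to -0.597 and Itgb1 from -0.61 to -0.30. Of the 8 tested members, 8 were called after median-of-ratios rescaling, 5 higher and 3 lower (64.4% of all genes, 31.7% higher and 32.7% lower). After quantile normalization it was again 8, 5 higher and 3 lower (61.5% of all genes, 28.5% and 33.1%), and with a common total 6, 4 higher and 2 lower (30.5%, 20.4% and 10.1%). The common-total calls rest on SEs drawn from genes of like level. Itga4 and Cd44 passed there narrowly (limma adjusted p = 0.0478 and 0.0489). With the letter as a replicate block it was 7, 4 higher and 3 lower (58.9%, 20.7% and 38.3%).

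**Figure D3:**
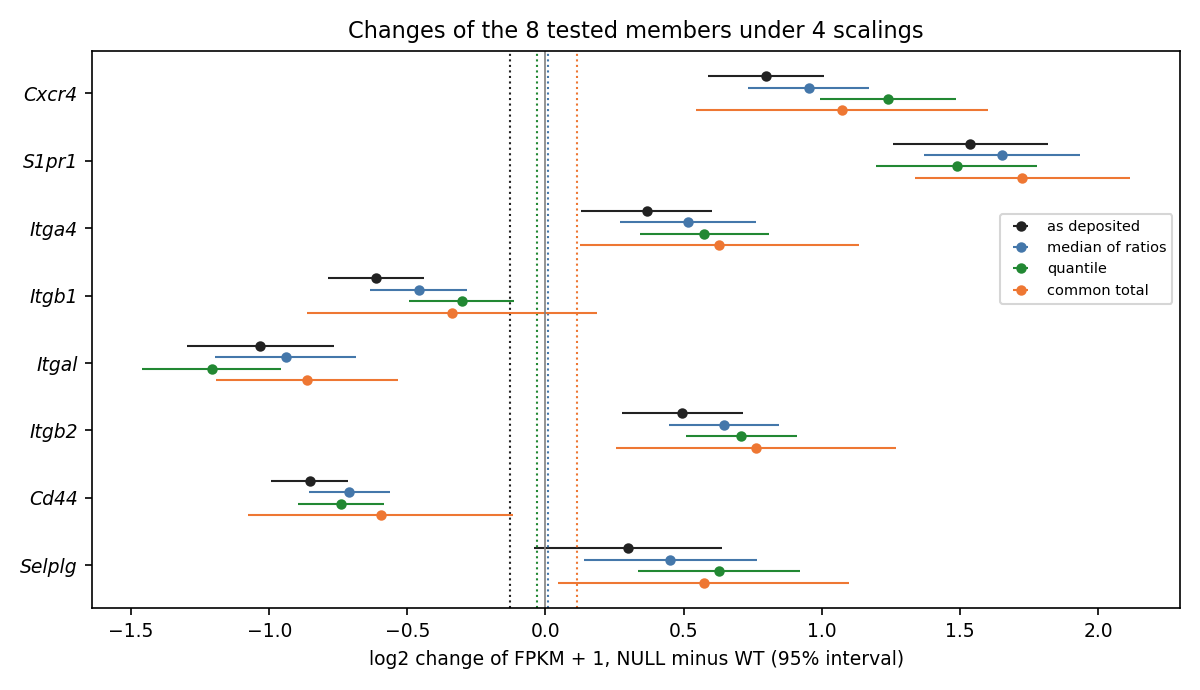
Log2 change of FPKM + 1 (NULL minus WT) of the 8 tested members with 95% limma intervals, as deposited and under 3 rescalings; dotted lines give the median of all tested genes in each. Each member stays on its side of 0, and with a common total the interval of Itgb1 reaches across 0, as does that of Selplg as deposited. With a common total the widths come from genes of like level, not from the spread of each member.

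Around these members, 8 lists with 141 genes of the same pathways were examined, of which 80 genes were tested, 29 higher and 24 lower in NULL. All tested genes gave 65.3% called, 23.3% higher and 42% lower, with a median of -0.13, so nothing particular to the lists is read from these counts or from those of each list. The chemokine axis had 4 tested genes out of 15, and 3 rose (median 0.67). All 3 kept their calls under the 3 rescalings. Cxcr5, the receptor that guides B cells to follicles, read 16.1 ± 1.93 and 30.5 ± 1.12 FPKM (SD, n = 3 each) with a log2 change of 0.88. Cmtm7, which supports B-cell receptor signalling, rose from 132.7 ± 1.82 to 217.8 ± 17.6 FPKM. Dpp4, the peptidase that trims CXCL12, rose from 81.95 ± 8.34 to 127 ± 6.82 FPKM (log2 change 0.63). Ccr7 was not called, at 6.71 ± 1.997 and 6.006 ± 0.424 FPKM, and its sign turned under 2 rescalings. The transcript of CXCL12 itself was at 0 in the 3 WT libraries and at most 0.0265 FPKM in NULL.

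In the sphingosine axis 3 of 5 tested genes rose and none fell (median 0.33). S1pr4, a lymphocyte relative of S1pr1, went from 5.91, 5.97 and 7.11 FPKM in WT to 12.5, 9.898 and 10.6 FPKM in NULL (log2 change 0.71). Cd69, whose product binds S1PR1 and pulls it from the surface, went from 16.2, 15.3 and 9.11 to 28.6, 33.7 and 35.6 FPKM, a log2 change of 1.24 (SE 0.198, limma adjusted p = 0.000948). S1pr1 and the gene for its antagonist were thus higher in the same libraries. Sphk2, a kinase that makes the ligand, was called higher by 0.33 (limma adjusted p = 0.042), and was not called without the filter (adjusted p = 0.0951). The count of called genes in this list was 2 with the replicate block and without any 1 of WT A, WT B, NULL A, NULL B or NULL C. Sgpp1, a phosphatase that removes it, was not called at 17.8 ± 1.13 and 16.4 ± 1.12 FPKM and changed sign under all 3 rescalings.

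Of 21 other integrin subunits only 3 reached the filter, namely Itga6, Itgam and Itgav. Itgam did so only through its NULL libraries, and was called without the filter as well (limma adjusted p = 8.33e-05). Itga6, the alpha6 chain of laminin receptors and a further partner of beta1, rose from 25.8 ± 0.643 to 38.2 ± 0.667 FPKM (SD, n = 3 each), a log2 change of 0.55 (SE 0.0570, limma adjusted p = 0.00012). It was more abundant than Itga4 in all 6 libraries. Itgav read 3.09 ± 0.443 and 3.19 ± 0.205 FPKM and was not called. The alpha4, alpha6 and alpha5 transcripts were thus higher in NULL while the beta1 transcript was lower.

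Genes that switch integrins on or tie them to actin were divided, 7 higher and 7 lower of 20 tested, and the balance moved to 10 and 4, 11 and 4, and 6 and 1 under the 3 rescalings. Actn1, an actin cross-linker, rose most, from 2.28 ± 0.217 to 7.502 ± 0.847 FPKM (SD, n = 3 each; log2 change 1.37). Cyth1, a guanine exchange factor that acts on beta2 integrins, rose by 0.92. The GTPases Rap1a and Rap1b, which relay chemokine signals to integrins, fell by 0.88 and 0.62, and each lost its call with a common total. Parvg, an actin linker of the parvin family, stood at 67.6 ± 4.76 and 59.5 ± 3.604 FPKM, was not called as deposited and was called higher after quantile normalization. Talin, Tln1, read 30.6 ± 2.08 and 34.4 ± 2.96 FPKM and was not called as deposited, while the kindlin Fermt3 was higher by 0.36, a call lost under 1 rescaling.

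In signalling below chemokine receptors 5 of 19 tested genes were higher and 7 lower, and this balance turned under each rescaling, to 6 and 5, 8 and 3, and 4 and 0. Rgs2, a brake on G-protein signals, rose from 4.16 ± 1.27 to 11.2 ± 0.496 FPKM (SD, n = 3 each; log2 change 1.28). Adrbk1, the kinase GRK2 that desensitises such receptors, rose by 0.44. Elmo1 and Cdc42, which act on the actin skeleton, fell by 0.62 each, with the calls lost under 1 and 2 of the 3 rescalings. Coro1a was not called, at 222 ± 38.2 and 218.3 ± 43.97 FPKM, and turned positive under all 3 rescalings, with a call as higher after quantile normalization (0.4803).

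Among the counter-ligands, Icam1, the ligand of LFA-1, rose from 8.82, 10.5 and 8.9966 FPKM in WT to 20.9, 19.3 and 20.3 FPKM in NULL (log2 change 1.02, limma adjusted p = 4.25e-05). Spp1, the matrix protein osteopontin that alpha4beta1 also binds, fell from 11.5 ± 1.93 to 3.94 ± 1.006 FPKM (SD, n = 3 each; log2 change -1.34). Vcam1, the ligand of VLA-4, was listed at 0 in all 6 libraries. Icam2, another LFA-1 ligand, read 15.9 ± 3.46 and 12.4 ± 1.18 FPKM and the hyaluronan synthase Has3 1.06 ± 0.0742 and 0.966 ± 0.012 FPKM, and neither was called as deposited. Has3 was called lower after quantile normalization (-0.23, limma adjusted p = 0.0408) and turned positive under the other 2 rescalings.

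Of the enzymes that build and sulfate selectin ligands 6 of 11 tested were lower and 2 higher (median -0.32), beside 42% lower among all tested genes, and with a common total 2 were lower and 2 higher. St3gal6, a sialyltransferase for such ligands, fell from 16.7, 13.2 and 15.9 FPKM to 3.76, 3.2968 and 3.93 FPKM, a log2 change of -1.80 (SE 0.1004, limma adjusted p = 1.65e-05). Tpst1, a tyrosine sulfotransferase, fell by 0.83 and Galnt1, which starts O-glycans, by 0.72, both calls lost with a common total. C1galt1, which extends those glycans, rose by 0.44.

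Among tetraspanins and other adhesion partners 6 of 14 tested genes were higher and 3 lower, and after quantile normalization 8 and 0. Cd9, a tetraspanin that associates with beta1 integrins, rose from 1.62, 1.78 and 1.42 FPKM to 12.7, 12.7 and 11.9 FPKM, a log2 change of 2.37 (SE 0.0754, limma adjusted p = 3.69e-06). Pecam1, an adhesion molecule of leukocytes and endothelium, rose from 11.1 ± 0.668 to 24.9 ± 0.467 FPKM (SD, n = 3 each; log2 change 1.0983). Of 8 endothelial markers only Pecam1 and Eng reached the filter. The list, Pecam1 included, summed to 12.9 to 14.8 FPKM in WT and 33.8 to 35.7 FPKM in NULL. Eng rose from 2.74 ± 0.374 to 9.30 ± 0.803 FPKM (SD, n = 3 each). The means of Cdh5, Kdr, Tek, Emcn, Vwf and Cldn5 were at most 0.0128 FPKM in WT and 0.116 FPKM in NULL. Cd24a, a mucin-like molecule of B-cell precursors, was not called at 1033 ± 24.2 and 909 ± 51.3 FPKM. The tetraspanin Cd81 was lower by -0.34, a call lost under all 3 rescalings. The part of endothelial cells in the Pecam1 result was not tested.

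**Figure D4:**
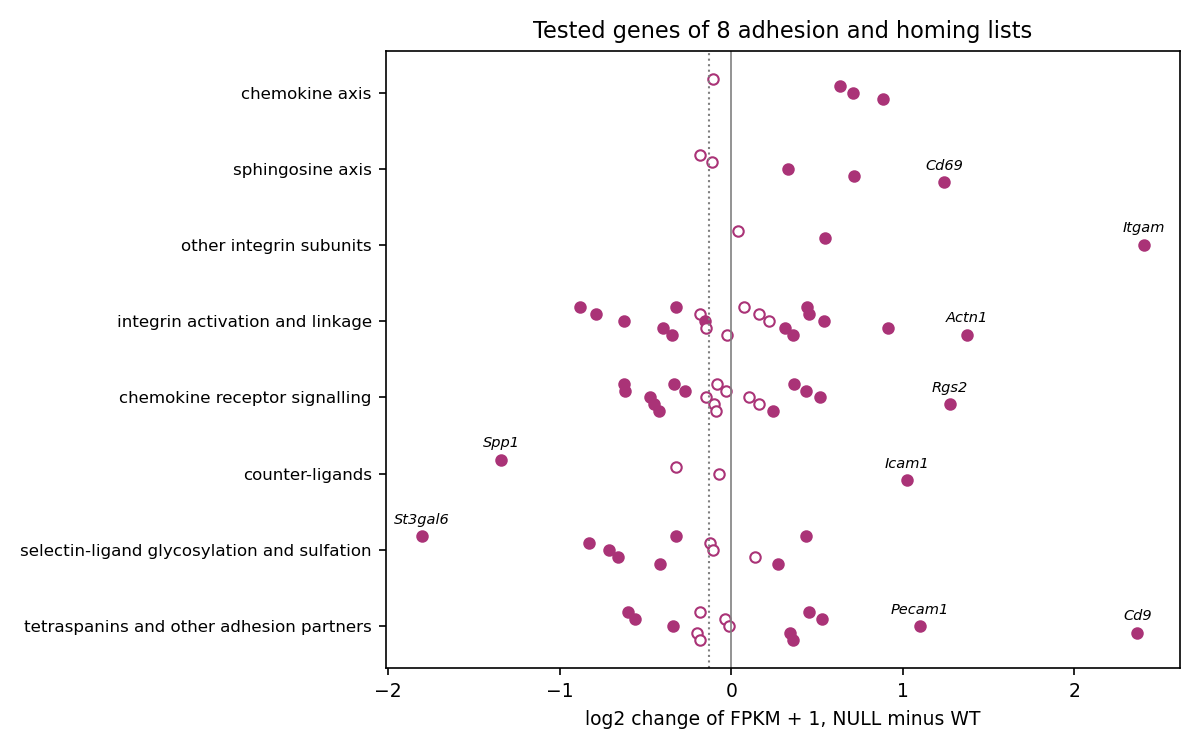
Log2 change of FPKM + 1 (NULL minus WT) of the 80 tested genes of 8 lists; filled points passed limma at an adjusted p of 0.05, the dotted line is the median of all tested genes, and genes called with a change of at least 1 are named. Itgam and Cd9 lie farthest right and St3gal6 farthest left.

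Some list genes followed a member closely over the 6 libraries, measured as the root-mean-square distance of log2(FPKM + 1) profiles centred on their means, among 80 candidates. Actn1 (0.148) and Rgs2 (0.17) were nearest to S1pr1, and Dpp4 (0.101) and Cyth1 (0.109) to Cxcr4. Cd48 (0.0652) was nearest to Itgb1, C1galt1 (0.0692) to Itga4, Skap2 (0.0752) to Itga5, Tpst1 (0.1299) to Itgal and Pxn (0.0971) to Itgb2. For Cd44 it was Rap1a (0.0746) and for Selplg Fermt3 (0.0698). Next came Cdc42 for Itgb1 (0.0802), Apbb1ip for Itga4 (0.1003), Grk5 for Itga5 (0.0807), Rap1a for Itgal (0.138), Adrbk1 for Itgb2 (0.0992), Galnt1 for Cd44 (0.0816) and Rgs14 for Selplg (0.0823). With groups this far apart the distance mainly records the size and sign of the group difference.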

How the data were processed

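Polyadenylated RNA of 6 mouse bone marrow samples was sequenced as stranded paired-end libraries, per the labels' protocols, and the authors deposited FPKM per gene symbol. Per the submitters' processing notes the tools were Bowtie and Cufflinks and the build mm10 (GRCm38), without roles or versions. The annotation, the use of strand and any scaling across samples were not given in the sources used here.

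The table of 23848 rows differed from the 6 library tables in 0 values. Of 256 symbols on several rows only the row of highest mean stayed (489 rows left out). Groups and letters come from sample titles. limma 3.58.1 in R 4.3.3 was fitted to log2(FPKM + 1) of genes averaging 1 FPKM or more, with moderation along the mean-variance trend. Its p-values are two-sided and were adjusted over all genes by Benjamini-Hochberg (threshold 0.05). The steps were tested on simulated data. Ratios within a library used exact permutation tests. Fold changes on this scale understate changes of weak genes. Positions come from GENCODE vM21 (GRCm38), promoters from RefSeq GRCm38.p6. Depth was taken from the usual step between low FPKM, times the longest transcript less 150 bp and is approximate, so no counting interval is given.

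Named genes were Gab2, the members, list genes called with a log2 change of at least 1 (at most 6 per list and direction), up to 2 further genes per list of highest mean, and the 2 nearest list genes of each member. Other list genes named were chosen after their values were seen. The members and lists were chosen with earlier results of these data known. Alternatives were pseudocounts, filters, 3 rescalings, no variance trend, a replicate block and leaving out each library.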

Additional observations from a re-analysis of the deposited data

How the results depend on the processing

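Over 15 alternatives S1pr1, Cxcr4, Itgal, Itgb2 and Cd44 kept direction and call wherever they were tested (S1pr1 and Itgal did not reach a mean of 5 FPKM). Itga4 lost its call without NULL C, Itgb1 with a common total, and Selplg gained one in 3 alternatives. Leaving out single libraries gave 6 to 8 called members, where 58.8% to 65.5% of all tested genes were called. Without WT B Itga5 passed the filter, so the 8 called there were out of 9 tested. Rescaling to a common total cut the called genes from 6479 to 3026 and those called lower from 4168 to 1003. List genes called went from 53 to 30. Summed FPKM were 377374, 419286 and 581658 in WT and 420144, 387827 and 314192 in NULL. Under that rescaling the SE rose from 0.0598 to 0.245 for Cd44 and from 0.0744 to 0.267 for Itgb1. For Selplg it rose from 0.146 to 0.269, so members of unlike spread came to nearly the same SE. The moderation there took the SE from the trend over all genes. The p-values and calls with a common total therefore do not measure a gene's own spread between libraries. The cause of the lost calls was not tested. A filter at 5 FPKM left 1364 genes called higher instead of 2311, with fewer genes tested. Adding 1 to each FPKM before a ratio, which shrinks ratios of weak genes by construction, gave 1.03 for Itga5/Itgb1, 0.053 for Itga5/Itga4, -1.53 for Itgal/Itgb2, -1.40 for Itgal/Itga4 and -0.74 for Cxcr4/S1pr1. With a replicate block on the letter, 5844 genes and the same number of members, 7, were called. The labels give same-letter libraries only the letter in common. Deviations correlated at 0.073 (A), 0.36 (B) and 0.13 (C) across genes, and each library correlated best with its own letter. Approximate depth also ran in the order A, C, B from the deepest in both groups. What the letters stand for is not stated. The smallest p of a ratio test is 0.1, and 0.25 over letter pairs.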

Other observations

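Of the pathway-list genes, 61 lay below a mean of 1 FPKM. Without a filter 14 of these were called by limma, 8 higher and 6 lower in NULL, and 7 were at 0 in every library. Of all genes in that fit 43.6% were called, 18.2% higher and 25.4% lower. That share includes genes above 1 FPKM, so it is not a like measure and nothing is read from the 14. The genes given here were chosen after their values were seen, and levels this low rest on few fragments. Ptk2, the focal adhesion kinase that acts below beta1 integrins, read 1.26, 1.03 and 1.91 FPKM in WT and 0.3005, 0.2896 and 0.317 FPKM in NULL (log2 change -0.86, limma adjusted p = 0.0034). Fn1, which encodes fibronectin, the ligand of alpha5beta1, was at most 0.0123 FPKM in WT and read 0.482, 0.482 and 0.375 FPKM in NULL. Itgax, another alpha partner of beta2, was listed at 0 in WT and read 0.16, 0.143 and 0.147 FPKM in NULL. The sphingosine-1-phosphate exporter Spns2 rose from 0.323 ± 0.0359 to 0.793 ± 0.119 FPKM (SD, n = 3 each).

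Klf2, a transcription factor known to activate S1pr1 in lymphocytes, was lower where S1pr1 was higher. It read 0.563, 0.736 and 1.01 FPKM in WT and 0.428, 0.388 and 0.439 FPKM in NULL, a log2 change of -0.31 (limma adjusted p = 0.0386 without a filter).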
